A study of Mus musculus with 9 samples.

Results

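The Notch receptors and their ligands were followed in RNA-Seq libraries of mouse osteoblasts and endothelial cells (ECs). The 8 genes described are the 4 receptors *Notch1*, *Notch2*, *Notch3*, and *Notch4*, and the 4 ligands *Jag1*, *Jag2*, *Dll1*, and *Dll4*. They were chosen by name among the 50686 genes of the deposited count table, and all 8 were found there and passed the filter on low counts that left 15531 genes to test. The filter used all 3 groups, and *Jag2* passed it only through its EC counts. The study asked whether SB216763, a compound that inhibits GSK3 kinases, turns osteoblasts toward an endothelial state. It compared untreated (control) cells of the mouse osteoblast line MC3T3-E1, MC3T3-E1 cells given 10 μM SB216763 for 14 days, and untreated mouse pulmonary ECs isolated by FACS, with n = 3 libraries of total RNA in each of the 3 groups. The time in culture of the control osteoblasts, any vehicle they received, and the strain and age of the mice are not given in the sources used here. MC3T3-E1 is 1 cell line, and nothing says that the libraries of a group came from separate cultures or animals, so the p-values measure the spread between these libraries, which may be technical.

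Notch receptors are single-pass membrane proteins that bind Jagged and Delta-like ligands on a neighboring cell. Binding exposes the receptor to ADAM proteases and then to γ-secretase, which frees the intracellular domain. The freed domain enters the nucleus, joins the DNA-binding protein RBPJ and a Mastermind coactivator, and turns on genes of the Hes and Hey families. In blood vessels the pathway is known for setting arterial identity and for restraining sprouting, with *Notch1*, *Notch4*, *Dll4*, and *Jag1* as its endothelial members and *Notch3* as the receptor of smooth muscle and pericytes. In bone, *Notch1* and *Notch2* are the receptors most studied in osteoblasts.

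The libraries held 30990107 to 68946333 counts, and values are given as CPM, the count of a gene scaled to the size of its library, here with the TMM method. At this depth 3 counts, taken as the smallest amount that a library can show, were worth 0.0473 to 0.104 CPM, a limit that covers counting error only. The labels were checked against marker lists. The summed level of 10 endothelial markers was 3.09 to 3.79 CPM in control osteoblasts, 2.82 to 3.41 CPM in treated osteoblasts, and 7069 to 7220 CPM in ECs, and 0 of the 10 passed the test between treated and control osteoblasts in edgeR, limma-voom, or DESeq2 at an adjusted p under 0.01. In edgeR 32.9% of all genes tested were higher in treated cells and 32.0% lower. At an unadjusted p under 0.05, 1 marker (*Egfl7*, named after its values were seen) was lower in treated cells in edgeR and DESeq2 and 0 in limma-voom. The markers *Cldn5*, *Tek*, and *Erg*, also named after their values were seen, held at most 5, 6, and 11 counts in any osteoblast library. They entered the test through their EC counts, so that they did not pass says little. The 7 osteoblast markers summed to 43921 to 59349 CPM in controls, 8068 to 8339 CPM after SB216763, and 45.1 to 64.5 CPM in ECs. The EC libraries also held 56.3 to 58.4 CPM of 6 leukocyte markers, nearly all of it *Cd68* (45.5 to 47.5 CPM) and *Lyz2* (10.1 to 10.7 CPM), with *Ptprc*, the marker of all leukocytes, at 3, 6, and 1 counts. The same list summed to 25.9 to 27.7 CPM in controls and 8.28 to 9.88 CPM in treated osteoblasts. The EC libraries held at most 0.185 CPM of 6 lung epithelial markers. In bulk RNA, fewer cells of a type and less RNA per cell cannot be told apart.

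The 8 genes differed in the sequence at their start sites. RefSeq (GRCm38.p6) gives the 300 bases around each start, 250 before and 50 after, and all 8 genes were matched, with 9 windows because *Dll1* has a pair of starts. The median of all 32851 windows held 7 CpG dinucleotides, while the windows of *Jag2* and *Notch2* held 63 and 41, that of *Notch1* held 23, that of *Dll4* held 17, and that of *Notch4* held 5. The 250 bases before the start are shown for the genes that rose past the fold threshold after SB216763 (*Notch1* and *Dll4*) and for the receptor that was highest per length in ECs and lowest in osteoblasts (*Notch4*). They read 5′ to 3′ on the strand of the gene, with every CpG in capitals, and lie at chr2:26503823-26504072 on the minus strand for *Notch1*, chr2:119325534-119325783 on the plus strand for *Dll4*, and chr17:34564045-34564294 on the plus strand for *Notch4*. The *Notch1* stretch lies inside the GENCODE M21 span of that gene, chr2:26457903-26516663. The window therefore does not cover a start at the 5′ end of that span. These 3 sequences and the CpG feature were chosen after the values and the sequences were seen.
Notch1: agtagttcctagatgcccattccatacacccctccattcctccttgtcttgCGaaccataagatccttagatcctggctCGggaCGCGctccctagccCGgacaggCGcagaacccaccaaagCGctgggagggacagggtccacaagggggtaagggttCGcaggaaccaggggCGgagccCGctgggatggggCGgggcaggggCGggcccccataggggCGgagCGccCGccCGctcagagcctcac
Dll4: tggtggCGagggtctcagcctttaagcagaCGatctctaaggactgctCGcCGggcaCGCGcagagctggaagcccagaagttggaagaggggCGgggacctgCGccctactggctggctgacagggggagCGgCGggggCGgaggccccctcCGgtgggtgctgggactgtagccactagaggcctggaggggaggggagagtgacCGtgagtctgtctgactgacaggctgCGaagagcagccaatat
Notch4: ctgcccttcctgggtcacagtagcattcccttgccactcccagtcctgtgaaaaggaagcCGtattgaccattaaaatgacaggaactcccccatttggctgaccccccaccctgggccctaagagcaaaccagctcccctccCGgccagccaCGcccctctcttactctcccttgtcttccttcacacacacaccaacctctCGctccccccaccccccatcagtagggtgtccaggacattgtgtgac

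The stretch shown for *Notch1* holds 16 CpG, that for *Dll4* holds 14, and that for *Notch4* holds 4. None of the 9 windows holds CTTTGAT or CTTTGAA, the core letters bound by the TCF/LEF partners of β-catenin, or TGGGAA, the core letters bound by RBPJ, on either strand. Over all 32851 windows the letters occur in 3.73%, 5.14%, and 25.6%, and their absence here says only that these letters are not in these windows.

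*Notch1* rose and *Notch2* did not pass the test after SB216763, and the receptor RNAs moved from mostly *Notch2* toward similar parts of *Notch2* and *Notch1*. *Notch1* (ENSMUSG00000026923.15, chr2:26457903-26516663, minus strand, protein coding in GENCODE M21 on GRCm38) was at 19.1, 14.8, and 20.9 CPM in control replicates 1, 2, and 3, and at 130.3, 130.4, and 151.7 CPM in the treated replicates. The lowest treated library was far above the highest control library, and the ECs, at 215.2, 212.8, and 233.6 CPM, were higher again with no overlap. The log2 fold change between treated and control osteoblasts was 2.92 with a 95% interval of 2.71 to 3.13, a 7.59-fold difference (edgeR adjusted p = 2.45e-13). Leaving out any library kept it between 2.78 and 3.01. The 10 endothelial markers, given above, did not pass the test beside it, though some of them were too low in osteoblasts for this to say much.

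*Notch2* (chr3:98013527-98150361, plus strand), the most abundant receptor of the control osteoblasts per length, was at 160.0, 106.6, and 156.9 CPM in controls and at 126.7, 125.4, and 145.6 CPM after SB216763. The treated libraries lay within the range of the controls, whose replicate 2 was the lowest of all 6. The log2 fold change was -0.09 with an interval of -0.33 to 0.15 (edgeR adjusted p = 0.488), and without control replicate 2 it was -0.27 and passed the test (edgeR adjusted p = 2.16e-04). In ECs *Notch2* was at 25.2, 26.1, and 26.8 CPM, below every osteoblast library, and 18.4% of the control mean.

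*Notch3* (chr17:32120820-32166852, minus strand), the receptor known from mural cells, was at 22.7, 17.6, and 22.5 CPM in controls and at 14.0, 13.6, and 15.5 CPM after SB216763. The highest treated library stayed below the lowest control library. *Notch3* fell by 0.54 on the log2 scale (SE 0.09), to 68.8% of the control mean (edgeR adjusted p = 6.45e-05). The mural cell markers were split, with 2 of 6 tested higher, 3 lower, and 1 not past the test, against 32.9% of all genes higher and 32.0% lower. So few genes do not set the list apart from all genes. Their summed level, over 7 markers, was 3127 to 3278 CPM in controls and 898 to 909 CPM in treated cells. In controls most of it was *Acta2*, smooth muscle actin, at no less than 2825 CPM. In treated cells *Acta2* was at no more than 152.4 CPM, a minor part of the sum. Without *Acta2* the other 6 summed to 262.4 to 321.3 CPM in controls and 752.9 to 767.9 CPM in treated cells, mostly *Pdgfrb*, a receptor of pericytes and fibroblasts. Their part in the *Notch3* result was not tested. ECs held 3.05, 2.89, and 3.34 CPM of *Notch3*, the lowest of the 3 groups.

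*Notch4* (chr17:34564268-34588503, plus strand), a receptor known mainly from endothelium, was the lowest of the 4 receptors in osteoblasts. Controls held 27, 27, and 9 counts (0.425, 0.492, and 0.313 CPM) and treated osteoblasts 44, 37, and 33 counts (1.26, 0.964, and 0.899 CPM). All 3 treated libraries were above all 3 controls, and the log2 fold change was 1.27 (SE 0.19, edgeR adjusted p = 1.82e-05). ECs held 267.9, 265.0, and 285.4 CPM, so the treated mean was 0.382% of the EC mean.

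**Figure D1:**
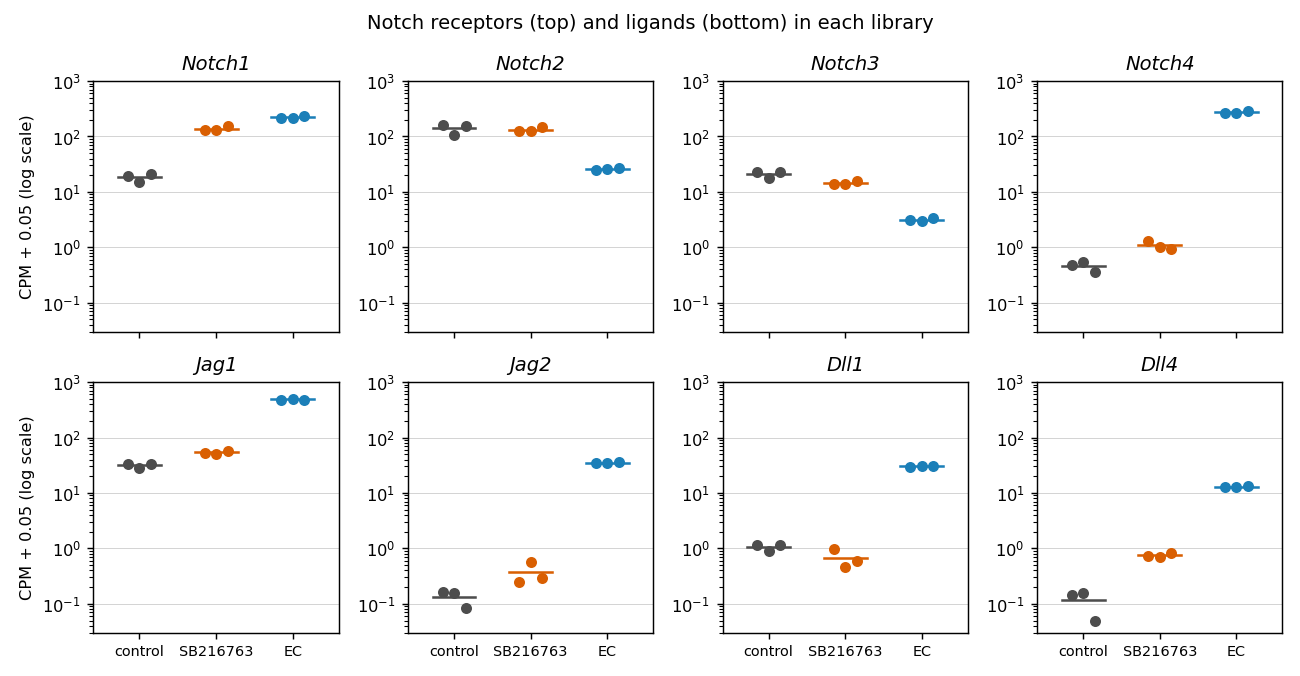
Level of each gene in each of the 9 libraries, as CPM plus 0.05 on a log axis, with the 3 libraries of each group as points in replicate order and the group mean as a line. *Notch1* in treated osteoblasts sits near the ECs, while *Notch4*, *Jag2*, *Dll1*, and *Dll4* in both osteoblast groups sit below 2 CPM and far from them.

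Among the ligands, *Jag1*, *Dll4*, and *Jag2* rose after SB216763 and *Dll1* did not pass the test. *Jag1* (chr2:137081456-137116644, minus strand), a Jagged ligand found in endothelium, smooth muscle, and bone, was at 32.8, 28.5, and 33.5 CPM in controls and at 52.7, 51.3, and 57.7 CPM after SB216763. The groups did not overlap, and the log2 fold change was 0.78 (SE 0.06), a 1.71-fold difference (edgeR adjusted p = 1.47e-08). ECs held 484.2, 498.6, and 484.0 CPM, and the treated mean was 11.0% of theirs.

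*Dll4* (chr2:119325784-119335962, plus strand), the Delta-like ligand of arterial and sprouting endothelium, was at 6, 6, and 0 counts in controls and at 24, 25, and 28 counts after SB216763. This is 0.0945, 0.109, and 0 CPM against 0.688, 0.652, and 0.763 CPM, with no overlap. The summed counts, 12 in controls and 77 in treated osteoblasts, gave a ratio per normalized library size of 8.59 with a 95% exact counting interval of 4.65 to 17.3. This interval covers counting error only and leaves out the spread between libraries. The fitted log2 fold change was 3.06 (SE 0.34, edgeR adjusted p = 7.43e-07). In ECs *Dll4* was at 12.8, 12.8, and 13.1 CPM, so its treated level was 5.43% of the EC mean.

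*Jag2* (chr12:112907819-112929776, minus strand), the other Jagged ligand, was at 7, 6, and 1 counts in controls and at 7, 20, and 9 counts after SB216763. These are 0.110, 0.109, and 0.0347 CPM against 0.201, 0.521, and 0.245 CPM, which do not overlap after scaling although the deepest control and the shallowest treated library hold the same 7 counts. The log2 fold change was 1.75 (SE 0.43, edgeR adjusted p = 0.00173), and without treated replicate 2 it was 1.20 and no longer passed (edgeR adjusted p = 0.0311). ECs held 34.9, 34.2, and 36.3 CPM. *Jag2* passed the filter on low counts only through these EC libraries and was left out of a fit of the osteoblast libraries alone.

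*Dll1* (chr17:15367354-15376872, minus strand), a Delta-like ligand, was at 1.10, 0.856, and 1.11 CPM in controls and at 0.917, 0.417, and 0.545 CPM after SB216763. Treated replicate 1 lay above control replicate 2, so the groups overlapped. The log2 fold change was -0.71 with an interval of -1.19 to -0.23 (edgeR adjusted p = 0.0106), just outside the threshold. It passed without control replicate 2 (-0.84, edgeR adjusted p = 0.00350) and without treated replicate 1 (-1.08, edgeR adjusted p = 4.07e-04). Without treated replicate 2 the fall was smaller and did not pass (-0.48, edgeR adjusted p = 0.0712). In ECs *Dll1* was at 29.1, 30.9, and 30.6 CPM.

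Between treated and control osteoblasts 5 of the 8 genes rose (*Notch1*, *Notch4*, *Jag1*, *Jag2*, and *Dll4*), 1 fell (*Notch3*), and 2 did not pass an adjusted p of 0.01. Of the 5, *Jag2* entered the test only through its EC counts. Of all genes tested, 32.9% rose and 32.0% fell, so changes of this kind were common in the table and passing the test did not set these genes apart. A log2 fold change of at least 2 as well, the cutoff of the study's methods, was passed by 2 of the 8 genes (*Notch1* and *Dll4*), both upward, against 3.81% of all genes upward and 5.84% downward. The libraries did not overlap for 5 genes upward and 1 downward, against 37.3% and 35.9% of all genes. The median log2 fold change of the 8 genes was 1.02, and that of all genes tested was 0.01. Scaling by library size only would raise the median of all genes by 0.20, and under it *Notch2* had a log2 fold change of 0.12 (edgeR adjusted p = 0.370), while the direction of the other 7 genes did not turn under any of the 3 other scalings tried.

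All 8 genes differed between ECs and control osteoblasts past the same fold cutoff, 6 higher in ECs and 2 lower. The share of all genes past it was 13.5% higher and 9.87% lower. *Notch2* and *Notch3* were lower in ECs, with log2 fold changes of -2.44 and -2.75. The genes higher in ECs ran from *Notch1* at 3.61 (SE 0.10), *Jag1* at 3.96, and *Dll1* at 4.89 to *Dll4* at 7.26, *Jag2* at 8.49, and *Notch4* at 9.31 (SE 0.09). The median over the 8 genes was 4.42, against 0.01 for all genes tested. This comparison and the one above share the control libraries, so their values are given side by side and were not correlated.

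**Figure D2:**
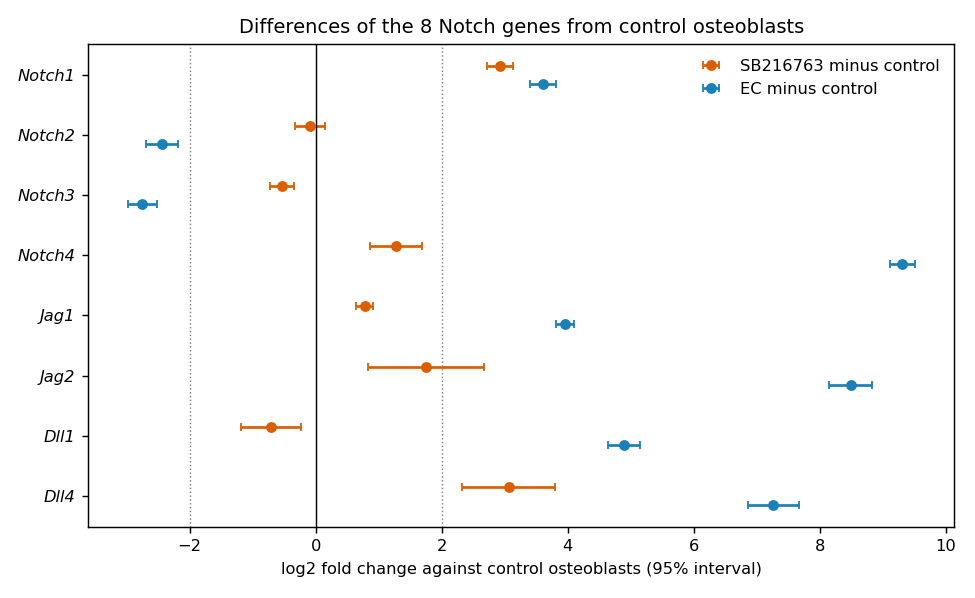
Log2 fold change of each of the 8 genes against control osteoblasts, for treated osteoblasts and for ECs, as points with 95% intervals, both from the same edgeR fit and the same 3 control libraries. Only for *Notch1* do both values lie within 1 log2 unit of each other, 2.92 and 3.61, while *Notch4* stands at 1.27 and 9.31.

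Set directly against ECs, treated osteoblasts were lower for 6 of the 8 genes and higher for 2, against 40.3% of all genes lower and 38.3% higher. The fold cutoff was passed by 7 of them, 2 higher and 5 lower, against 10.3% of all genes higher and 15.0% lower. *Notch1* was the exception, at 62.3% of the EC mean (log2 fold change -0.68, SE 0.09, edgeR adjusted p = 2.24e-06). The other endothelial-high genes stayed far below ECs, from *Jag1* at 11.0% and *Dll4* at 5.43% of the EC mean to *Dll1* at 2.07%, *Jag2* at 0.917%, and *Notch4* at 0.382%. *Notch2* and *Notch3* were higher in treated osteoblasts than in ECs, by 2.35 (SE 0.12) and 2.21 (SE 0.12) on the log2 scale.

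To compare levels between genes, the CPM were divided by the summed length of the exons of each gene in kilobases. In control osteoblasts *Notch2* made up 76.8% ± 1.48 (SD, n = 3) of the summed receptor level per kb, *Notch3* 15.3% ± 1.03, *Notch1* 7.59% ± 0.475, and *Notch4* 0.315% ± 0.133. In treated osteoblasts *Notch2* made up 51.5% ± 0.0468 and *Notch1* 40.5% ± 0.276, with *Notch3* at 7.46% and *Notch4* at 0.547%. The *Notch1* share lay between 40.2% and 40.7% in the 3 treated libraries and between 7.04% and 7.91% in the 3 controls. ECs had another order, with *Notch4* at 64.9%, *Notch1* at 29.7%, *Notch2* at 4.64%, and *Notch3* at 0.733%. The ratio of *Notch1* to *Notch2* per kb was 0.0904 to 0.105 in controls, 0.779 to 0.790 after SB216763, and 6.18 to 6.60 in ECs. The exon union of *Notch1* is 14232 bases, longer than its longest transcript of 9488 bases, and with the transcript length its share was 10.7%, 49.8%, and 34.4% in control, treated, and EC libraries. Which receptor led in treated osteoblasts turned with the length used. *Notch1* was ahead of *Notch2* with the longest transcript (49.8% against 43.4%), with the longest coding length (47.4% against 46.7%), and without dividing by length (48.2% against 46.4%, a count ratio of 1.03 to 1.04).

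*Jag1* dominated the ligands per kb in every group, with 95.2% ± 0.317 in controls, 96.1% ± 0.501 after SB216763, and 84.4% ± 0.348 in ECs. The remaining part was mostly *Dll1* in controls, at 4.25%, and was *Dll4* at 1.89% and *Dll1* at 1.54% after SB216763. In ECs it was spread over *Dll1* at 7.20%, *Jag2* at 5.08%, and *Dll4* at 3.37%. The summed ligand level per kb was 5.13 to 6.02 CPM per kb in controls, 9.15 to 10.3 in treated osteoblasts, and 98.3 to 101.1 in ECs. For the receptors the sums were 13.2 to 19.0, 22.6 to 26.2, and 50.6 to 54.7 CPM per kb, with control replicate 2 as the lowest library.

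**Figure D3:**
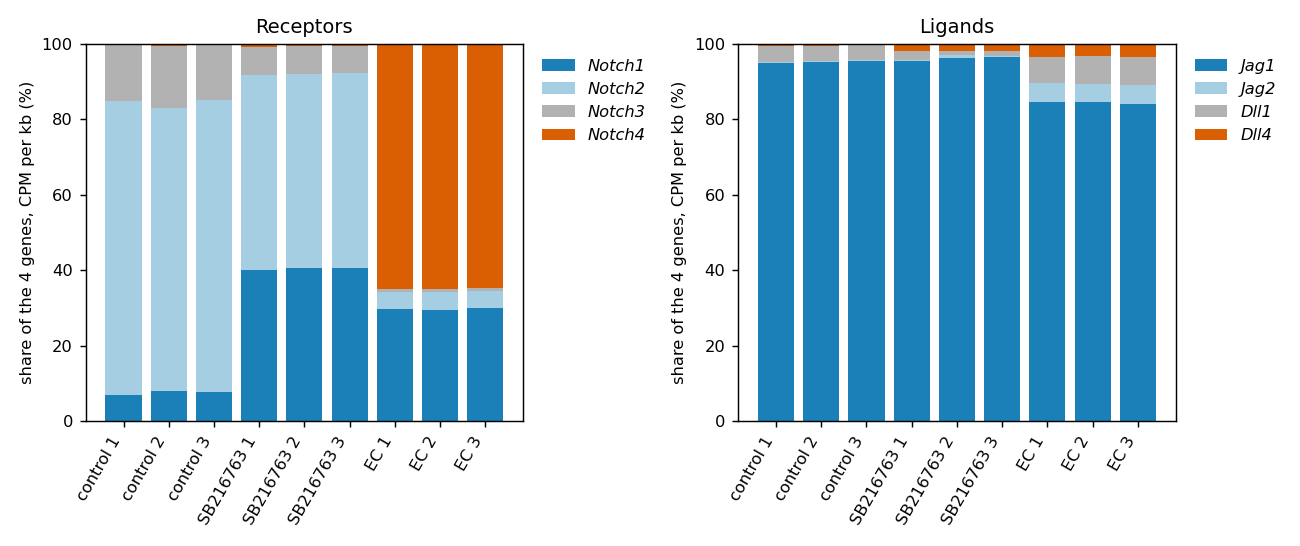
Share of each receptor (left) and each ligand (right) in the summed level per kb of its 4 genes, as stacked bars in percent for each of the 9 libraries. The receptor bars go from mostly *Notch2* in controls to *Notch2* and *Notch1* after SB216763 and to *Notch4* and *Notch1* in ECs, while *Jag1* fills most of every ligand bar.

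On this per-length scale *Notch2* kept a similar rank among 15504 genes with a known length in both osteoblast groups, at percentile 74.8 in controls and 74.1 after SB216763. *Notch1* stood at percentile 33.0 in controls, 68.8 after SB216763, and 78.3 in ECs. In controls the order of the 8 genes ran from *Notch2* at 13.1 CPM per kb, *Jag1* at 5.42, and *Notch3* at 2.59 through *Notch1* at 1.28 and *Dll1* at 0.243 to *Notch4* at 0.0508, *Dll4* at 0.0176, and *Jag2* at 0.0122, and only the libraries of the neighbors *Dll4* and *Jag2* overlapped. In treated osteoblasts the order of the 8 genes on the exon-union length was *Notch2* at 12.3 CPM per kb, *Notch1* at 9.66, *Jag1* at 9.26, *Notch3* at 1.78, *Dll4* at 0.182, *Dll1* at 0.148, *Notch4* at 0.129, and *Jag2* at 0.0463. The libraries of the neighbors *Notch1* and *Jag1*, of *Dll4* and *Dll1*, and of *Dll1* and *Notch4* overlapped on this scale. In ECs the order was *Jag1* at 83.9 CPM per kb, *Notch4* at 33.8, *Notch1* at 15.5, *Dll1* at 7.16, *Jag2* at 5.05, *Dll4* at 3.35, *Notch2* at 2.42, and *Notch3* at 0.382, and no neighbors overlapped there.

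The other genes of the pathway were taken from lists of 52 genes, of which 45 were tested. Between treated and control osteoblasts 20 rose, 9 fell, and 16 did not pass the test, and their median log2 fold change was 0.14. The 45 include genes that entered the test through their EC counts, some among the 16 and, with *Aph1c*, also among the 20 that rose. *Hey2* held 0 counts in all osteoblast libraries and so could not pass. *Mfng* and *Nrarp* held at most 4 and 3 counts in any of them. Of all genes tested, 32.9% rose and 32.0% fell, with a median of 0.01. With scaling by library size only, 29 of the 45 were higher and 8 lower, against 43.3% and 24.6% of all genes, while the other 2 scalings gave 20 and 9. Under it the nuclear complex went from 3 higher and 3 lower to 7 and 2, the list of ligand uptake and receptor turnover from 5 to 8 higher, the sugar-adding enzymes from 2 to 3 higher, and receptor processing from 9 to 10 higher.

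The proteases and γ-secretase subunits that cut the receptor rose for 9 of 10 genes, against 32.9% of all genes tested. *Psen2*, a catalytic subunit of γ-secretase, went from 12.0 to 25.9 CPM (log2 fold change 1.11, edgeR adjusted p = 1.70e-09), and *Aph1b*, another subunit, from 10.1 to 21.5 CPM (1.08, edgeR adjusted p = 8.96e-10). *Aph1c*, a close copy of *Aph1b* whose reads may be shared with it, held 1, 1, and 0 counts in controls and 3, 5, and 3 in treated osteoblasts, a ratio of 7.36 with an exact counting interval of 1.61 to 68.4, and it did not pass without treated replicate 2 (edgeR adjusted p = 0.0246). The interval covers counting error only. *Aph1c* entered the test only through its EC counts of 22, 11, and 18. *Adam17*, a protease that can cut the receptor outside the cell, rose by 0.67 on the log2 scale.

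Of the 5 genes that add sugars to the receptors, 2 rose and 1 fell, against 32.9% and 32.0% of all genes tested. *Lfng*, a Fringe glycosyltransferase that changes which ligands a receptor answers to, was at 72.3, 80.4, and 71.9 CPM in controls and at 9.95, 8.73, and 8.01 CPM after SB216763. It fell by 3.08 on the log2 scale (SE 0.07, edgeR adjusted p = 1.77e-15), while ECs, at 67.7 to 69.1 CPM, were close to the controls. *Mfng*, another Fringe, held at most 4 counts in any osteoblast library and 47.3 to 49.99 CPM in ECs. *Poglut1* and *Rfng* rose by 0.32 and 0.21.

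Among 13 tested genes of ligand uptake and receptor turnover, 5 rose and 3 fell, against 32.9% and 32.0% of all genes tested. *Neurl1b*, a ubiquitin ligase that acts on ligands in the sending cell, went from 9.19 CPM in controls to 0.588 CPM in treated osteoblasts, against 22.3 CPM in ECs. It fell by 3.95 on the log2 scale (SE 0.11, edgeR adjusted p = 3.94e-14). *Dtx4*, a Deltex ubiquitin ligase that acts on the receptor, went the other way, from 9.24 to 41.3 CPM (2.17, SE 0.07, edgeR adjusted p = 1.43e-13), and was at 9.35 CPM in ECs. *Dtx3l* rose by 1.11.

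The nuclear genes were split, with 3 of 11 higher and 3 lower, against 32.9% and 32.0% of all genes tested. *Maml3*, a Mastermind coactivator, rose from 19.8 to 44.5 CPM (1.17, edgeR adjusted p = 1.77e-11), and *Spen*, a corepressor, rose by 0.63. *Rbpj*, the DNA-binding partner of all 4 receptors, went from 178.8 to 114.1 CPM and so fell by 0.65 (SE 0.04, edgeR adjusted p = 7.35e-10), to a level near the 109.7 CPM of ECs.

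The target genes did not move together. *Hes1*, a repressor and the best known target, was at 6.38, 7.25, and 6.36 CPM in controls and at 66.3, 72.9, and 67.5 CPM after SB216763, and the EC libraries, at 51.3 to 52.8 CPM, lay between these groups. The log2 fold change was 3.36 (SE 0.06, edgeR adjusted p = 1.57e-16). *Hey1*, a target in endothelium and bone, held 73, 45, and 35 counts in controls and 2, 1, and 1 counts after SB216763, so the controls were 28.6 times as high, with an exact counting interval of 10.9 to 106.2 (fitted log2 fold change -4.73, edgeR adjusted p = 1.05e-08). That interval leaves out the spread between libraries. *Heyl* held 17, 14, and 4 counts in controls and 1, 1, and 0 in treated osteoblasts, too few to enter the test. In ECs *Hey1* was at 19.6 CPM and *Nrarp*, a target that feeds back on the receptor, at 17.2 CPM, while *Nrarp* held at most 3 counts in any osteoblast library.

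**Figure D4:**
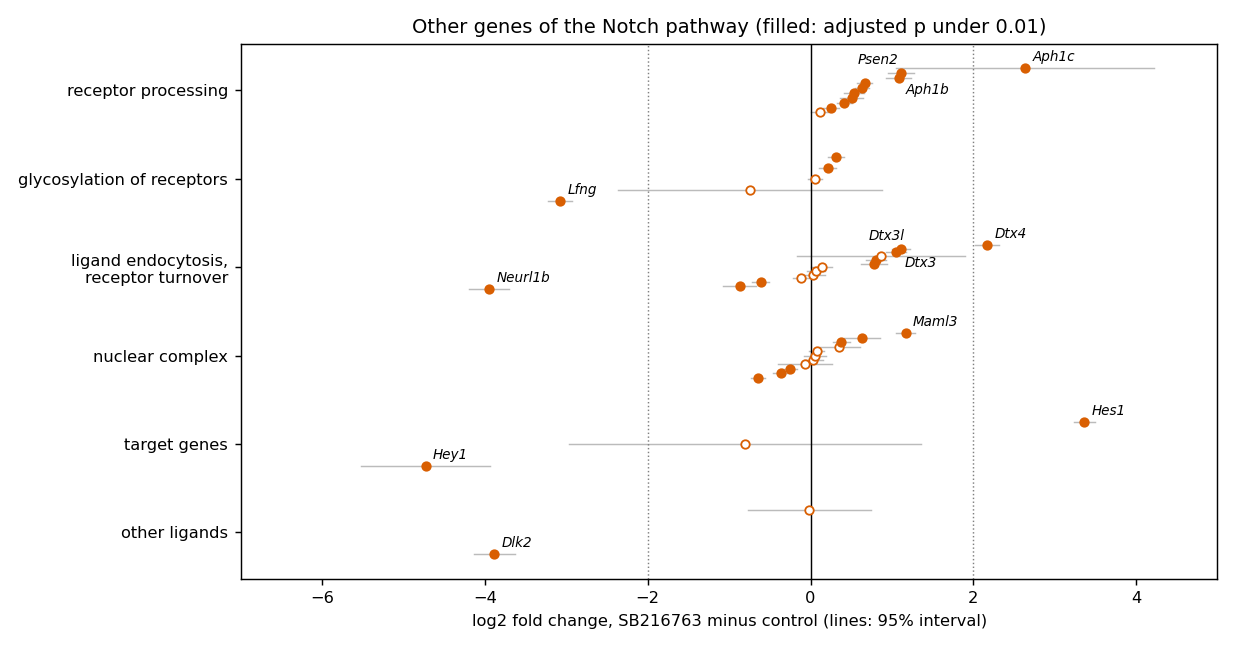
Log2 fold change between treated and control osteoblasts for the 45 tested genes of the 6 pathway lists except *Hey2*, which held 0 counts in osteoblasts. Lines are 95% intervals, points are filled where the edgeR adjusted p was under 0.01, and dotted lines mark the fold cutoff. *Hes1* at 3.36, *Aph1c* at 2.64, and *Dtx4* at 2.17 lie beyond the upper line and *Lfng*, *Neurl1b*, *Hey1*, and *Dlk2* beyond the lower one. Of all genes tested, 3.81% passed this cutoff upward and 5.84% downward. The points of *Aph1c* and *Hey1* rest on groups with 2 and 4 counts in all, and *Aph1c* entered the test only through its EC counts.

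The noncanonical ligand *Dlk2*, a membrane protein related to the Delta-like ligands, was at 23.2, 24.0, and 21.7 CPM in controls and at 1.63, 1.59, and 1.44 CPM after SB216763. It fell by 3.89 on the log2 scale (SE 0.12, edgeR adjusted p = 7.50e-14), to below the 2.61 CPM of ECs. Only 2 of the 5 genes of this list were tested.

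The genes most like each of the 8 were found by the Euclidean distance of centred log2 CPM over the 9 libraries. The closest to *Notch1* were *Hmox1*, which encodes heme oxygenase 1, at a distance of 0.62 and *Gpr137b* at 0.65. *Hmox1* had means of 80.6, 592.8, and 841.3 CPM in control, treated, and EC libraries. The closest to *Notch2* were *Psd3* and *Asph*, to *Notch3* *Sbk1* and *Fmn1*, and to *Jag1* *B3gnt3* and *Pde9a*. *Pde9a* had means of only 0, 0.0451, and 0.811 CPM in control, treated, and EC libraries, so its match depends on the prior count of 2 in the log2 CPM. The closest to *Notch4* were *Card10* and *Nes*, to *Jag2* *Tmem40* and *Procr*, which encodes the endothelial protein C receptor, and to *Dll1* *Fam49a* and *Syn2*. *Dll4* had the least close neighbors, *Tcim* at 1.16 and *Slc22a23* at 1.32. With 3 groups of 3 libraries this measure is set mainly by the 3 group means, and by Pearson correlation most of these nearest genes were not found again.

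Several genes overlap the 8 on the opposite strand, and the strand setting of the counting is not given in the sources used here, so reads of an overlap cannot be told apart. The highest level of any overlapping gene was 1.17 CPM for *0610009E02Rik* at *Notch1* in a treated library. At *Dll1* the overlapping *A930024N18Rik* reached at most 0.848 CPM, in ECs. At *Dll4* the overlapping *Gm14207* held 0, 1, and 0 counts in controls, 4, 4, and 7 in treated osteoblasts, and 11, 3, and 8 in ECs, so it was higher in treated than in control libraries, as *Dll4* was, at no more than 0.191 CPM in treated libraries, where *Dll4* held 0.652 to 0.763 CPM. Its part in the *Dll4* result was not tested.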

How the data were processed

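Total RNA was sequenced from 3 control, 3 SB216763-treated, and 3 EC libraries. The authors aligned and counted the reads with STAR (2.5.3a, genome build GRCm38, per the submitters' processing notes) and deposited whole-number counts per gene, without normalization. Which annotation and strand setting were used is not given in the sources used here. The label text names SB216763 for every sample, so groups were taken from titles and treatment entries. All 9 columns matched a sample, and 0 were left unused. Of the 50686 identifiers, 50462 were matched to GENCODE M21, which gave symbols, coordinates, and exon lengths.

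Counts were filtered with filterByExpr, normalized by TMM, and tested in 1 edgeR 4.0.16 quasi-likelihood fit of all 9 libraries (R 4.3.3), with Benjamini-Hochberg adjustment over 15531 genes. A gene passed the test at an adjusted p under 0.01 and the fold cutoff when its log2 fold change also reached 2 in either direction. Prior counts were 0.125 for fold changes and 2 for log2 CPM. Confidence intervals are at 95%. Depth ran from 30990107 to 68946333 counts, and 3 counts were the floor. No replicate pair differed by as little as sampling noise.

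The members, gene lists, and tests were chosen with earlier results of these data known. The rule for names took the 8 members, up to 3 genes of each pathway list with the largest change between treated and control osteoblasts that passed the test, and the 2 nearest genes of each member. *Adam17*, *Mfng*, *Heyl*, *Hey2*, *Nrarp*, *Acta2*, *Pdgfrb*, *Cd68*, *Lyz2*, *Ptprc*, *Sp5*, and *Znrf3* were added after their values were seen. Lists of mural, leukocyte, lung epithelial, endothelial, and osteoblast markers checked the labels. A list of 8 Wnt feedback genes summed to 159.1 to 174.3 CPM in controls, 40.0 to 42.7 CPM after SB216763, and 27.0 to 28.2 CPM in ECs. Between treated and control osteoblasts 4 of 6 tested were lower, against 32.0% of all genes. The other 2 did not pass the test. They were *Znrf3*, at means of 32.6 CPM in controls and 34.4 CPM in treated cells, and *Sp5*, with 0 counts in all osteoblast libraries.

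After centring each group, libraries that share a number had positive but low correlations between control and treated osteoblasts, 0.00286 to 0.123, and not all above 0.1, so the number was left out of the fit. Alternatives were DESeq2 1.42.0, limma-voom (limma 3.58.1), other scalings, filters, cutoffs, and prior counts, fits of only the 2 groups compared, a replicate block, other lengths, and each library left out. On simulated counts with 200 of 15123 genes shifted by 3 on the log2 scale between the treated and control groups, edgeR, limma-voom, and DESeq2 each called all 200 and 0, 5, and 0 others. The shifted genes were drawn only from those above a minimum level in controls, and every gene had the same simulated dispersion. The simulation therefore says nothing about genes as low as *Notch4*, *Jag2*, and *Dll4* in controls, or about smaller shifts.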

Additional observations from a re-analysis of the deposited data

How the results depend on the processing

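Few counts limit *Jag2* and *Dll4* in control osteoblasts, and no group has more than 3 libraries. Of the 8 genes, *Notch2* turned direction between treated and control osteoblasts, to a log2 fold change of 0.12 with library size only, and ran from -0.27 to 0.011 when a library was left out, the highest without control replicate 1 and the lowest, which passed the test, without control replicate 2. The cause was not tested. The genes called lower between these groups, 1 in all, became 2 with no filter, with DESeq2, and at an adjusted p under 0.05, where *Dll1* passed, and 1 to 3 when a library was left out, with 3 without control replicate 2 and 2 without treated replicate 1. The 2 genes past the fold cutoff upward became 4 with a cutoff of 1 on the log2 scale and 1 in a test against the value 2 itself, where *Dll4* had an edgeR adjusted p of 0.0227. The 2 higher in treated osteoblasts than in ECs became 1 in that test. *Jag2* was not tested in the fit of only the 2 osteoblast groups, where it did not pass the filter on low counts. Pathway genes past the fold cutoff upward went from 3 to 8 with the cutoff of 1 and to 1 in the test against 2, and between ECs and controls from 7 to 13 upward and from 3 to 5 downward with the cutoff of 1. These follow from the construction of the cutoffs.

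The *Notch1* share of the receptors in control, treated, and EC libraries was 10.2%, 48.2%, and 42.2% without length, 10.7%, 49.8%, and 34.4% with the longest transcript, and 9.87%, 47.4%, and 36.6% with the coding length, and in treated libraries it was above that of *Notch2* in these 3 settings, unlike with the exon union. The *Jag1* share of the ligands was 96.4%, 97.0%, and 86.2% without length, 94.6% in controls and 82.3% in ECs with the longest transcript, and 94.2%, 95.4%, and 81.9% with the coding length. By Pearson correlation, 2 of the 16 nearest genes were found again.

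With the replicate number as a block, between treated and control osteoblasts 5 of the 8 genes were higher and 1 lower, the same counts as without it, and the pathway lists had 21 higher and 9 lower. *Jag2* had a log2 fold change of 1.75 (edgeR adjusted p = 0.00340) and *Dll1* of -0.71 (edgeR adjusted p = 0.0161) under the block. Of 6 libraries each, 4 correlated best with their own number between control and treated osteoblasts, 2 between controls and ECs, and 0 between treated osteoblasts and ECs.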
